A study of Mus musculus with 10 samples.

Results

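Transcripts annotated as antisense, that is, RNAs read from the strand opposite to another gene, were examined in hearts of mouse embryos at embryonic day 13.5. Members were selected on measured values: rows of the deposited table of gene type antisense whose normalized counts averaged 10 or more over all 10 libraries, leaving out by name the imprinted or long-studied transcripts *H19*, *Meg3*, *Rian*, *Mirg*, *Peg13*, *Kcnq1ot1* and *Airn*, of which 2 were antisense rows of this mean. The rule gave 139 transcripts, of 966 rows of this gene type and 23195 genes in all. The label antisense was the annotation's and not a measurement, and in the later release used here for positions, 134 of the 139 kept it while *Inafm2* was listed as protein coding.

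The hearts came from male embryos of strain C57BL6/J in 2 groups of 5 libraries each, wild type (*Nos1ap* +/+) and *Nos1ap* constitutive null (tm1d/tm1d). The null allele lacks exon 4, which CMV-Cre removed in all cells, and it came from targeted embryonic stem cells and was kept on the C57BL/6J background. No other allele or treatment was given for either group. PolyA RNA was sequenced with a kit that keeps the strand, and the authors' counting used the strand. Reads of overlapping genes on opposite strands could thus be assigned separately. How completely the strand was kept was not tested. Whole hearts hold many cell types, and in such samples fewer cells of a type and less RNA per cell cannot be told apart.

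Only group means were deposited, and the counts of single libraries were derived from these means as described under the processing. The libraries are numbered from 1 to 5 within a genotype by falling size factor, a numbering that is not the replicate number of the labels, and values below stand in this order. Counts of all 10 libraries were obtained for 138 of the 139 transcripts, and for 130 of them only 1 set of whole counts gives the printed means. Depth, estimated from the size factors, ranged from 11328000 to 14023000 read pairs per library. *Nos1ap* had between 126 and 161 normalized counts in wild-type and between 31.1 and 44.4 in null libraries. The 7 cardiomyocyte markers were abundant in both genotypes, with summed means of 366900 in wild type and 374100 in null hearts. The 6 erythroid markers summed to 132600 and 198800, and only 1 of them had derived counts. Wild-type library 3 stood apart: the 6 of 8 neuronal and glial markers with derived counts summed to 2643 there and to between 151 and 223 in the other libraries, the 1 of 3 smooth muscle markers stood at 206 against 28.3 to 69.1, and the 2 of 4 lung epithelium markers summed to 29.5 against 3.03 to 8.28.

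Natural antisense transcripts overlap or start beside another gene and are read in the opposite direction. Some share a promoter region with that gene, some are precursors of small RNAs, and some act on the neighbouring gene or its RNA. Most are less abundant than messenger RNAs, and many unstable ones are degraded in the nucleus by the RNA exosome. In the heart, *Mhrt*, read opposite the β-myosin heavy chain gene *Myh7*, is a known example.

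The members lay on 19 chromosomes. For 136 of them a gene on the other strand was assigned as partner, by the symbol (28 pairs, such as *Wt1os* and *Wt1*), by overlap, or by a start within 5000 bp. The pairs were called head to head where the antisense transcript began inside the partner and ran past its start (53 pairs), divergent where both started close together without overlap (16), tail to tail where the transcript began beyond the partner's end (31), inside where it lay within the partner (32), and containing where it covered the partner (4). The starts of 74 members lay within 5000 bp of the partner's start and those of 49 within 1000 bp, 33 of these downstream of the partner's start and 16 at or upstream of it. The median distance was 845 bp for head to head pairs and 31360 bp for tail to tail pairs. Exons overlapped between the strands in 109 pairs, and in 17 of them more than 50% of the antisense exon bases were covered by partner exons. Of the members, 107 had more than 1 exon block and 32 a single one.

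Sequences around the start of 5 members are given because these transcripts are described below and their windows differ in the number of CpG. Of the 139 transcripts, 72 matched a window of 300 bases in the promoter table of RefSeq (GRCm38.p6, 250 bases before the start and 50 from it). The RefSeq start lay a median of 8 bp from the start in the gene annotation, but more than 1000 bp from it for 7 of the 72 and up to 54342 bp (*Zmiz1os1*). CpG dinucleotides are in capitals, and each sequence is written 5′ to 3′ in the direction of the antisense transcript. *Atcayos* and *Wt1os* had 20 and 16 CpG in the window, and *Dnm3os*, *C130080G10Rik* and *Mhrt* had 5, 2 and 1.
Atcayos (chr10:81194441-81194740, + strand): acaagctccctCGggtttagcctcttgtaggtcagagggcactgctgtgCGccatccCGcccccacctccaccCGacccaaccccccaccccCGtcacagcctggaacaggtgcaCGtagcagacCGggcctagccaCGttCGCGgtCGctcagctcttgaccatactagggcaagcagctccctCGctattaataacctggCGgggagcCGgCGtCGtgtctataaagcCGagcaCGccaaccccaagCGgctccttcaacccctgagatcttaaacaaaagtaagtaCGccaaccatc
Wt1os (chr2:105126461-105126760, - strand): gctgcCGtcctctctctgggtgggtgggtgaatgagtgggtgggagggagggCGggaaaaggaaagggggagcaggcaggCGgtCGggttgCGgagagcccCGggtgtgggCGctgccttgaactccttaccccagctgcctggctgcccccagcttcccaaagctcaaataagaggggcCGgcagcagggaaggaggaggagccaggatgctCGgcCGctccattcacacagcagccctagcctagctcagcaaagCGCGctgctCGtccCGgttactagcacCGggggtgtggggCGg
Dnm3os (chr1:162217373-162217672, + strand): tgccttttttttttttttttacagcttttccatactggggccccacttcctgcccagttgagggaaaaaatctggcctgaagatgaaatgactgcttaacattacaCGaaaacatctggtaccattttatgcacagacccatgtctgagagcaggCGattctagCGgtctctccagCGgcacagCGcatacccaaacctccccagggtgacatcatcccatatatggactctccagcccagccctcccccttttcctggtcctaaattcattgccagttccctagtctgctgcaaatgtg
C130080G10Rik (chr2:114054146-114054445, + strand): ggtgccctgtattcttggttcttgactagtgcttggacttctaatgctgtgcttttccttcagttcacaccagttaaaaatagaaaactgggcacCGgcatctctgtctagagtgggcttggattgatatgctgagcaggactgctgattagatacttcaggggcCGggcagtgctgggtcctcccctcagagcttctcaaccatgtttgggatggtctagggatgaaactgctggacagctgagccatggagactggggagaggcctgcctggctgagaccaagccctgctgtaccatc
Mhrt (chr14:54968537-54968836, + strand): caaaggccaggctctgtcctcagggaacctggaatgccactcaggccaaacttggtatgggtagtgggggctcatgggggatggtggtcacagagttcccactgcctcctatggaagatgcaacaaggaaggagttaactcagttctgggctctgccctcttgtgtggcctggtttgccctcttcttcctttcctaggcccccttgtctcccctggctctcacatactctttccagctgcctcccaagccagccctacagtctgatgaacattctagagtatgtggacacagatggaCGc

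Windows with a GC content of at least 50% and an observed to expected CpG ratio of at least 0.6 made up 39 of the 72 (54.2%), against 33.5% of all 32851 windows of the table. With the 65 windows within 1000 bp of the annotated start, a choice made after seeing the data, the share was 55.4%. The median number of CpG was 17 in the members' windows, which ranged from 0 to 45, and 7 in all windows. Head to head and divergent members (40 windows, 14 of them of members that start more than 1000 bp from the partner's start) had a median of 20.5 CpG, and the other arrangements (31 windows) had 14. The hexamer GGGCGG, searched on both strands, was found in 38 of 72 windows (52.8%, against 35.7% of all windows), CCAAT in 28 (38.9% against 37.4%), TATAAA in 9 (12.5% against 13.6%) and AGATAA in 0 (against 11.2%). GGGCGG holds a CpG, so that its share moves with the CpG count. The counts of these short sequences are matches of letters, given as a description. The members were selected on expression and the windows of the whole table were not. The shares and CpG numbers of members and of all windows are therefore not those of like sets.

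The 139 antisense transcripts made up a small share of the library. Their means summed to 9798 normalized counts, 0.0799% of the sum over all genes, and the 10 most abundant held 49.3% of it. The 825 antisense rows with a mean below 10 and the 2 left out by name are not in this sum. The median over members of the mean normalized count was 26.8, with quartiles of 16.02 and 54.05. Of the 139, 17 had a mean of at least 100, 71 lay from 20 to 100, and 51 below 20. Long intergenic RNAs with a mean of at least 10 (226 genes) had a similar median of 24.7, and protein-coding genes (13299) a median of 342. Per kb of exon, here and below with all annotated exons of a gene merged, the medians were 14.97, 12.00 and 70.9 normalized counts for the 3 classes. At the threshold, *4933417O13Rik* (mean 10.3, inside *Kcnq1*) and *Gata5os* (mean 10.1) were just above a mean of 10, and *2510046G10Rik* (mean 9.999) and *6330562C20Rik* (9.93) just below.

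*Brip1os* was the most abundant, with 978, 1021, 965, 989.7 and 1036 normalized counts in wild-type and 1006, 966, 978, 1012 and 926 in null libraries. It starts 177 bp from *Brip1*, which encodes a DNA repair helicase, and runs away from it (chr11:86201370-86304443, + strand). *Brip1* had a mean of 134, so that the antisense transcript was 8.44 times as abundant per kb of exon. *Brip1os* was paired with *Brip1* by its symbol and does not overlap it. It overlaps 2 other protein-coding genes on the opposite strand, and its level was not set against theirs. The genotypes overlapped, with a log2 fold change (null over wild type) of -0.03 ± 0.038 (SE) and an adjusted p of 0.998 by limma.

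*Igf2os* had 723, 664, 792, 709 and 771 in wild-type and 671, 741, 757, 714 and 671 in null libraries. Its partner *Igf2*, the imprinted growth factor gene of fetal tissues, had a mean of 96374. *Atcayos* lacks derived wild-type counts, with a wild-type mean of 674 and null libraries at 690.3, 699, 628, 648 and 798. *Atcay*, which encodes the neuronal protein caytaxin, had a mean of only 18.6, and a value of 75.3 in wild-type library 3 against 8.70 to 16.1 elsewhere.

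*Inafm2* had 694, 694, 583, 650.2 and 695 in wild-type and 689, 629, 684, 621 and 709 in null libraries, and no gene on the other strand was found in reach of it. *1110002L01Rik*, tail to tail with the kinesin gene *Kif3c*, had 307, 323, 296, 301 and 317 in wild-type and 299.7, 302, 331, 293 and 274 in null libraries. The values of both transcripts overlapped between the genotypes.

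*C130080G10Rik* starts 787 bp from *Actc1*, the gene of cardiac α-actin (chr2:114054335-114064868, + strand). It had 263, 316, 209, 289 and 273 in wild-type and 302, 253, 281, 309 and 297 in null libraries, lowest in wild-type library 3. *Actc1* had a mean of 99898, and per kb of exon the antisense level was 0.00175 of it. *6330403L08Rik*, head to head with the growth factor gene *Pdgfa*, had 292, 269, 269, 281 and 242 in wild-type and 283, 251, 309, 278 and 288 in null libraries. *Gm44732*, inside the cell-cycle inhibitor gene *Cdkn1c*, had 252, 185, 232, 233 and 212 in wild-type and 212, 232, 209, 218 and 213 in null libraries. Of its 635 exon bases, 625 lie opposite *Cdkn1c* exons, and its mean was 2.56% of that of *Cdkn1c*. Whether reads of the sense strand were counted on the antisense strand was not tested.

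*Dnm3os* lies inside *Dnm3*, a dynamin gene mainly used in neurons (chr1:162217623-162225550, + strand), and is the precursor of miR-199a and miR-214. Both hairpins of the RefSeq table lay within it on its strand. The mature sequences are shown with the seed (bases 2 to 8) in capitals, since the transcript is known for them. No other member held a hairpin on its own strand.
mmu-miR-199a-5p: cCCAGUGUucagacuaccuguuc
mmu-miR-199a-3p: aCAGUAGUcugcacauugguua
mmu-miR-214-5p: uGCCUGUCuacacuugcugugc
mmu-miR-214-3p: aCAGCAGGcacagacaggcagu
These 4 seeds differ from each other. The host transcript had 207, 204, 266, 223 and 368 in wild-type and 227, 126, 303, 257 and 206 in null libraries. Its SD was 68.6 in wild type and 65.9 in null hearts, against 25.6 and 9.30 for *Gm44732* of a like mean, with the highest value in wild-type library 5 and the lowest in null library 2, and the genotypes overlapped. Per kb of exon it was 42.5 times as abundant as *Dnm3*, whose mean was 17.3. The merged exons had 7928 bases for *Dnm3os* and 24452 for *Dnm3*. *Dnm3* stood at 43.8 in wild-type library 3 against 7.83 to 18.6 elsewhere. The libraries held polyA RNA, and mature miRNAs were not measured.

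**Figure D1:**
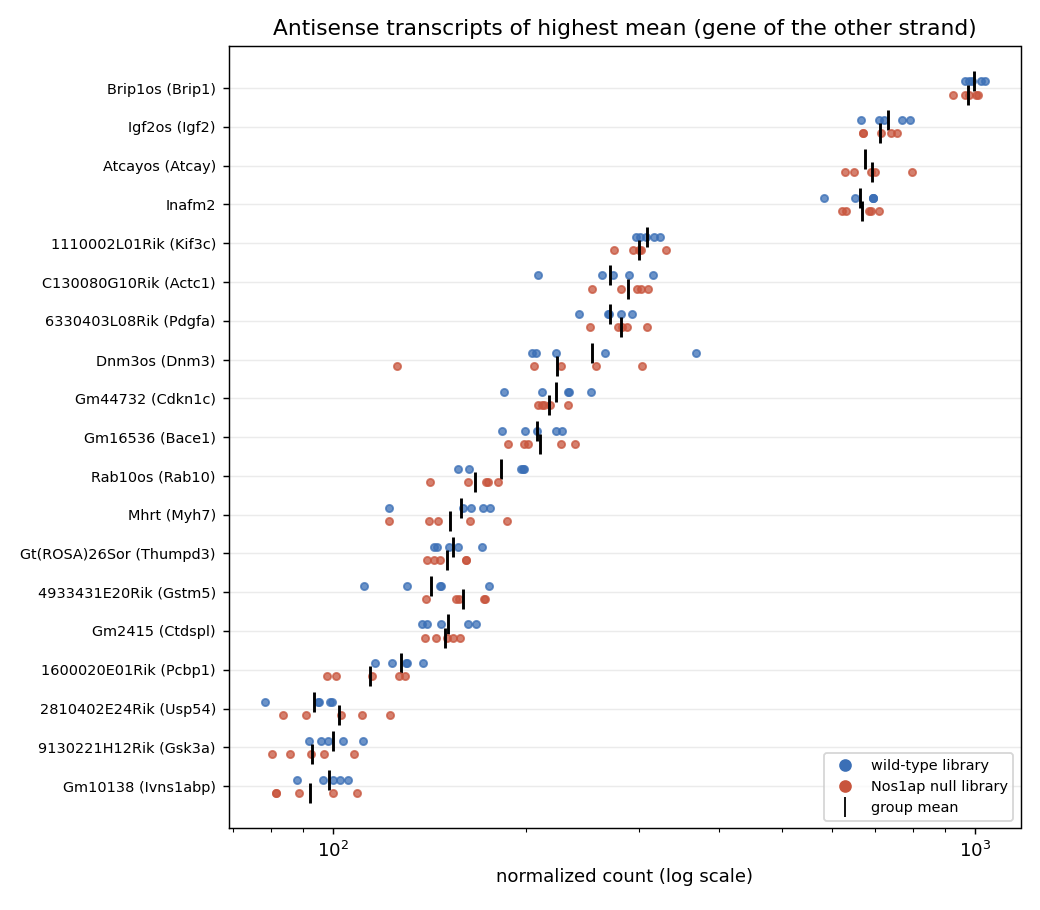
Normalized counts (log scale) of 19 of the 20 antisense transcripts of highest mean, 1 row each, with the partner gene in brackets; points are libraries (blue, wild type; red, *Nos1ap* null) and black bars are group means. The blue and red points overlap in every row except that of *Atcayos*, which has a wild-type mean but no wild-type points.

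Antisense transcripts were compared with their partners per kb of exon, as levels over all libraries. Of 135 pairs with both levels in the table, 23 had the higher level on the antisense strand and 49 had an antisense level under 0.1 of the partner's, with a median ratio of 0.144. The median ratio was 0.455 for the 4 containing pairs, 0.289 for inside pairs, 0.130 for tail to tail, 0.12 for head to head and 0.0901 for divergent pairs. In 34 pairs the partner had a mean of at least 1000.

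The highest ratios belonged to pairs whose sense gene was low in the heart. Members were selected on a mean of at least 10 and partners had no such floor, so that this follows in part from the rule. *Gm15543*, inside *Casc1*, stood first at 139 times the level of *Casc1* per kb of exon. Much of this came from length, with merged exons of 361 and 12207 bases and means of 50.6 and 12.3. *Gm15543* had 71.3, 50.3, 49.9, 35.1 and 28.97 in wild-type and 54.9, 61.3, 46.4, 50.5 and 57.7 in null libraries. It was followed by *Rab26os* opposite the vesicle GTPase gene *Rab26* (70.04), *Dnm3os* and *Ctcflos* (40.2). *Ctcfl*, a germ-cell paralogue of the insulator protein CTCF, had a mean of 0.394, and *Ctcflos* 26.1, 32.9, 22.4, 21.7 and 25.9 in wild-type and 27.9, 33.2, 20.2, 18.3 and 22.9 in null libraries. The others of the 10 highest were *Gm11837* at *Necab1* (34.9), *Atcayos* (33.6), *Gm26982* at the ghrelin gene *Ghrl* (21.9), *6330418K02Rik* at *Gal3st4* (13.5), *Il1bos* at the interleukin gene *Il1b* (11.4) and *Gm36266* at *Fbxo24* (8.67). Partner means in these 10 pairs ranged from 0.394 to 18.6. *Necab1*, like *Atcay* and *Dnm3*, was highest in wild-type library 3, at 35.6 against 0.968 to 7.83 elsewhere.

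Among the lowest ratios were antisense transcripts at genes of muscle protein and hormone, named here after their values were seen. *Mhrt* (chr14:54968678-54974349, + strand) had 176, 171, 122, 164 and 159 in wild-type and 122, 187, 141, 146 and 163 in null libraries, at 0.00854 of the level of *Myh7*. *Gm13054*, opposite the natriuretic peptide gene *Nppa*, had 54.8, 29.04, 47.8, 42.3 and 22.8 in wild-type and 26.1, 42.2, 34.3, 45.1 and 21.8 in null libraries, at 0.00239 of the level of *Nppa*. 39.9% of the exon bases of *Mhrt* and 64.9% of those of *Gm13054* lay opposite partner exons. *Nespas*, the antisense transcript of the imprinted *Gnas* locus, stood at 0.00245 of the level of *Gnas*, with a mean of 12.4. *Gm11175*, wholly opposite the transcription factor gene *Jund*, had a mean of 55.4 and stood at 0.0365. For these transcripts too, whether reads of the sense strand were counted on the antisense strand was not tested.

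**Figure D2:**
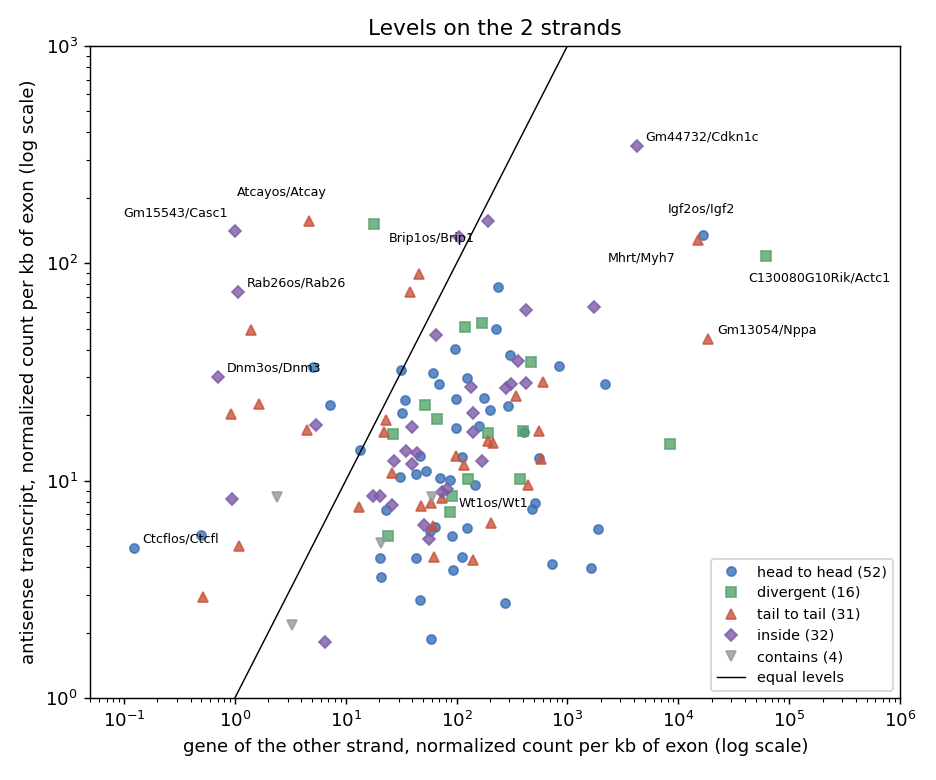
Antisense level against partner level, both as normalized counts per kb of exon on log scales, for 135 pairs; symbols give the arrangement with the number of pairs, and the line marks equal levels. The 23 pairs to the left of the line had more antisense than sense RNA, and *C130080G10Rik*, *Gm13054*, *Igf2os* and *Mhrt* lie far to the right.

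Between genotypes, no antisense transcript passed the test. With limma on the log2 of normalized counts plus 1, 0 of 138 transcripts had an adjusted p under 0.05, against 3 of 11351 genes of all types tested (0.0264%), and the smallest adjusted p of a member was 0.998. At an unadjusted p under 0.05 there were 5 of 138 (3.62%), 3 higher and 2 lower in null hearts, against 3.6% of all genes. With voom weights, 0 passed and 6 had an unadjusted p under 0.05. The values of wild type and null did not overlap for 0 of 138, against 0.784% of all genes. The median log2 fold change of the group means over the 139 was 0.028, beside -0.00505 over all genes tested. Summed over members, the means were 9757 in wild type and 9838 in null hearts. The median standard error of a log2 fold change was 0.20 for members and 0.083 for all genes. Changes of this size or smaller were not detectable for most members at this depth. Larger ones did not pass either, up to the largest fitted member change of 0.96, so that 0 called does not exclude changes well above 0.20.

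The 10 members of smallest p are given with their values, and each had a limma adjusted p of 0.998. *Gm12758*, which overlaps *4931406P16Rik*, had 12.2, 21.3, 18.3, 17.5 and 17.6 in wild-type and 29.7, 23.1, 18.1, 33.3 and 34.9 in null libraries. Null library 3 lay within the wild-type range and the other null libraries above it, with a log2 fold change of 0.63 ± 0.22 (SE) and an unadjusted exact permutation p = 0.0238 (two-sided, where the smallest p that 252 arrangements allow is 0.00794). *1700052K11Rik*, head to head with the kinase gene *Tlk2*, had 98.3, 111, 105, 83.6 and 88.97 in wild-type and 81.00, 74.4, 75.6, 74.1 and 87.1 in null libraries, with a log2 fold change of -0.30 ± 0.11 (SE). Wild-type library 4 lay below null library 5, and the rest were separate. *Mypopos*, inside *Mypop*, had 22.6, 19.4, 28.5, 21.7 and 18.6 in wild-type and 29.7, 27.1, 35.3, 26.8 and 34.9 in null libraries, with a log2 fold change of 0.46 ± 0.18 (SE). Wild-type library 3 reached into the null range.

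*Gm16740* starts 459 bp from the start of *Gabpb2*, a subunit gene of the transcription factor GABP, and had 12.2, 18.4, 20.4, 13.4 and 14.5 in wild-type and 17.1, 18.1, 26.2, 25.8 and 29.4 in null libraries. Its lowest null values lay among the wild-type ones, with a log2 fold change of 0.53 ± 0.22 (SE). *Gm5577*, head to head with the linker histone gene *H1fx*, had 25.2, 26.1, 34.6, 31.99 and 39.3 in wild-type and 22.5, 12.1, 21.2, 35.4 and 19.6 in null libraries, with a log2 fold change of -0.54 ± 0.23 (SE). Null library 4 lay above 4 of the 5 wild-type libraries. *Gm36266*, inside *Fbxo24*, had 14.8, 19.4, 19.3, 17.5 and 13.4 in wild-type and 9.90, 11.1, 12.1, 11.8 and 15.2 in null libraries, with a log2 fold change of -0.46 ± 0.23 (SE).

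*Gm27177* had the largest fitted change among these, 0.96 ± 0.45 (SE), and also a wide spread, with 28.7, 114, 34.6, 46.4 and 98.3 in wild-type and 168, 154, 77.6, 81.6 and 91.5 in null libraries. It overlaps *Entpd4b*, named as a copy of *Entpd4*, and the counting could have split its reads with such a copy, so that its level is uncertain. *Gm11696*, head to head with the G protein gene *Gna13*, had 20.01, 25.2, 24.4, 10.3 and 34.1 in wild-type and 16.2, 14.1, 20.2, 15.03 and 9.80 in null libraries. *Gm15491*, tail to tail with *Mgea5*, the gene of O-GlcNAcase, had 20.9, 13.6, 16.3, 7.22 and 11.4 in wild-type and 8.10, 6.03, 13.1, 5.37 and 13.1 in null libraries. In both, the genotypes overlapped.

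*Wt1os* starts 19 bp from *Wt1*, the transcription factor gene that marks the epicardium, and runs away from it (chr2:105076538-105126510, - strand). It had 36.5, 24.2, 24.4, 19.6 and 26.9 in wild-type and 27.00, 45.2, 30.2, 31.1 and 34.9 in null libraries, with a log2 fold change of 0.35 ± 0.19 (SE). *Wt1* had 525, 473, 589, 483 and 468 in wild-type and 566, 575, 565, 635 and 532 in null libraries, with a log2 fold change of 0.18 ± 0.064 (SE) and an adjusted p of 0.998 by limma. Neither strand passed the test, and the genotypes overlapped for each.

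**Figure D3:**
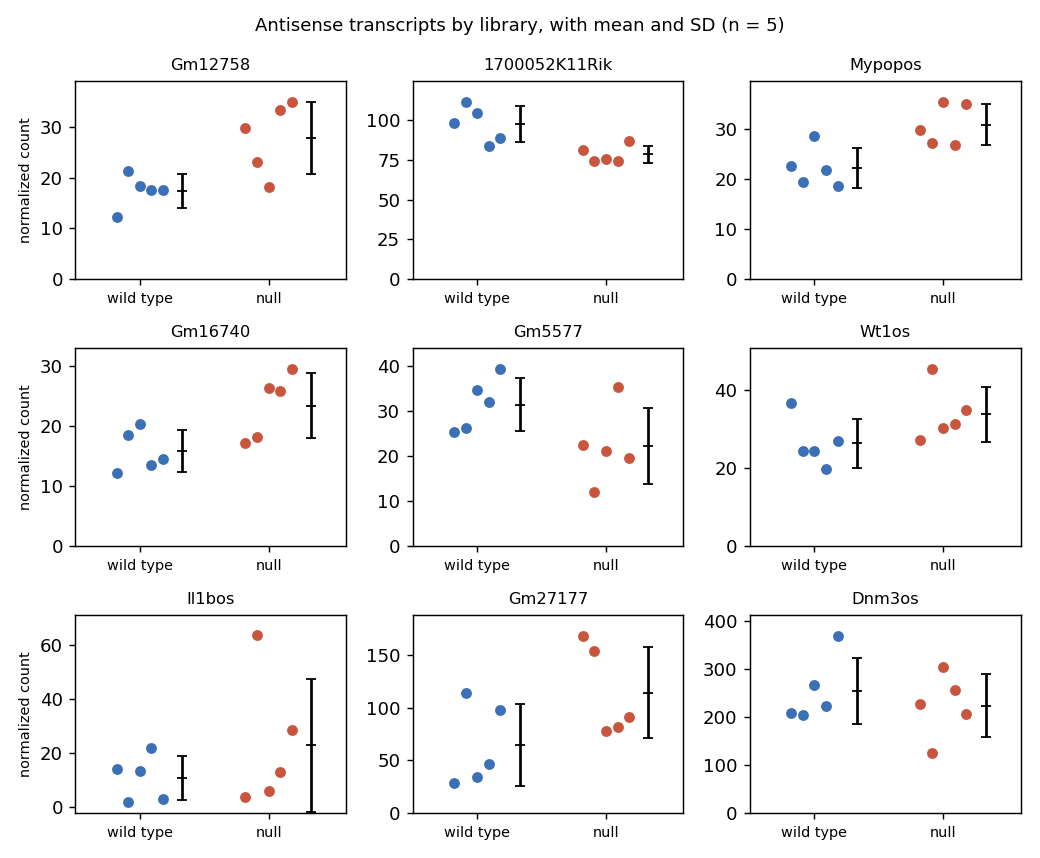
Normalized counts of 9 antisense transcripts in 5 wild-type (blue) and 5 *Nos1ap* null (red) libraries, in order of library number, with the mean and SD beside the points in black. In each panel at least 1 library of one genotype lies within the range of the other.

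**Figure D4:**
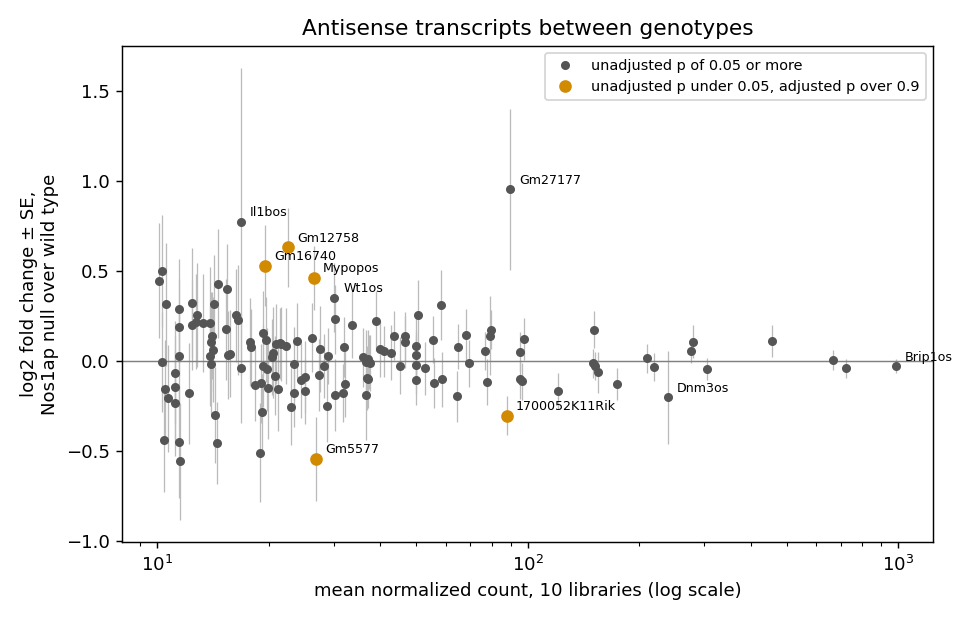
Log2 fold change with its standard error (null over wild type, limma) against the mean normalized count (log scale) of 138 antisense transcripts; the 5 with an unadjusted p under 0.05 are in orange. The spread around 0 widens toward low means, and *Brip1os* at the right lies near 0.

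Antisense transcripts at genes of cardiac development were taken from a fixed list of regulators, which 8 members touched, *Wt1os* among them. None of the 8 passed the test. *Tbx3os1*, at the gene of the conduction-system repressor TBX3, had 6.96, 11.6, 17.3, 14.4 and 12.4 in wild-type and 8.10, 9.05, 17.1, 18.3 and 23.96 in null libraries. *Gata5os*, at the endocardial factor gene *Gata5*, had 10.4, 13.6, 7.13, 5.16 and 6.21 in wild-type and 12.6, 12.1, 6.05, 12.9 and 15.2 in null libraries. Both had low counts that overlapped between genotypes.

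*A830082K12Rik*, at *Nr2f1*, a nuclear receptor gene, had 30.4, 32.9, 42.8, 39.2 and 23.8 in wild-type and 31.5, 39.2, 28.2, 28.99 and 25.05 in null libraries. *Zeb2os*, inside the repressor gene *Zeb2*, had 27.8, 24.2, 32.6, 25.8 and 27.9 in wild-type and 17.1, 35.2, 31.3, 21.5 and 29.4 in null libraries. *Gm9917*, tail to tail with the tumour suppressor gene *Rassf1*, had 54.8, 43.6, 58.02, 55.7 and 47.6 in wild-type and 41.4, 49.3, 42.3, 57.99 and 50.1 in null libraries. The ranges of these 3 overlapped between genotypes.

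In the Hox clusters, whose genes set position along the body axis, *Hoxb3os* had 31.3, 29.04, 33.6, 30.96 and 28.97 in wild-type and 27.00, 38.2, 27.2, 40.8 and 31.6 in null libraries. *Hoxb3* had 46.98, 33.9, 192, 59.9 and 33.1 in wild-type and 51.3, 28.1, 29.2, 55.8 and 34.9 in null libraries. Wild-type library 3 was thus high for the sense gene, while *Hoxb3os* stood at 33.6 there, within the range of the other libraries. The neuronal and glial, smooth muscle and lung epithelium markers with derived counts were high in the same library, and their part in the *Hoxb3* value was not tested. Over the members, wild-type library 3 was the highest wild-type library for 24 of 138 (17.4%), and for 24% of all genes tested.

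Whether both strands of a locus varied together was examined over the 10 libraries, on log2 values with two-sided permutation tests, in the 84 pairs with derived counts on both strands and a partner mean of at least 10. No pair passed after adjustment over the 84, 3 had an unadjusted p under 0.05, and the median of Pearson's r was 0.0318. The largest correlation was that of *Gm13111* and *Prdm16*, a transcriptional regulator gene whose start lies 703 bp away. *Gm13111* had 52.2, 83.2, 53.9, 90.8 and 97.2 in wild-type and 81.00, 52.3, 86.7, 81.6 and 113 in null libraries, and *Prdm16* had 416, 508, 406, 477 and 601 and 545, 356, 501, 530.5 and 533. Both were low in wild-type libraries 1 and 3 and in null library 2, with Pearson's r = 0.87 (permutation p = 0.00201, adjusted 0.126) and Spearman's rho = 0.64 (permutation p = 0.0539, adjusted 0.906). Without wild-type library 3 and null library 2, the farthest from the median of *Prdm16*, r was 0.74, and it was 0.89 within wild type and 0.86 within null, 5 libraries each.

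*Gm44777*, opposite the lipid kinase gene *Pik3c2a*, had 20.9, 42.6, 29.5, 28.9 and 35.2 in wild-type and 42.3, 29.2, 38.3, 34.4 and 33.8 in null libraries, with Pearson's r = 0.86 (permutation p = 0.00299, adjusted 0.126) and Spearman's rho = 0.65 (permutation p = 0.0493, adjusted 0.906). Without wild-type libraries 1 and 2, r fell to 0.47, and the relation rested on them. The other pairs of the 5 largest had opposite or weaker relations. *Gm10561* and *Rftn2* had Pearson's r = -0.69 (permutation p = 0.0303, adjusted 0.756) and Spearman's rho = -0.75 (permutation p = 0.0177, adjusted 0.906), and r = -0.71 without null libraries 2 and 4. *2900089D17Rik* and *Bri3* had r = -0.62, which became -0.26 without wild-type library 1 and null library 3. *B230369F24Rik* and *Cox20* had r = 0.60, which became 0.22 without wild-type libraries 2 and 3. Both of the latter rested on the libraries left out.

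**Figure D5:**
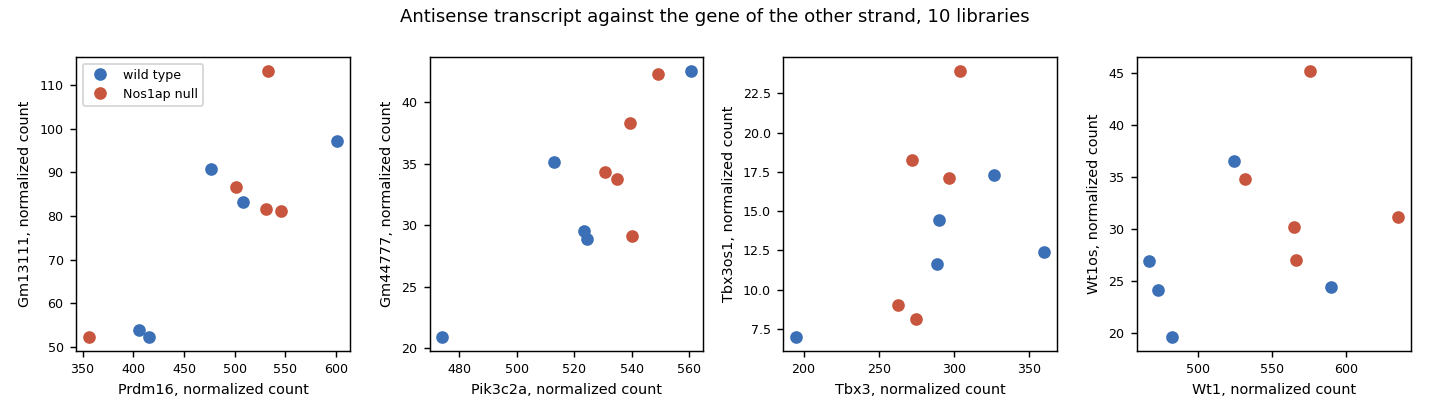
Normalized counts of an antisense transcript against its partner gene in 10 libraries (blue, wild type; red, *Nos1ap* null) for 4 pairs. For *Gm13111* and *Prdm16*, r on the log2 scale was 0.87 with an adjusted permutation p of 0.126. For *Wt1os* and *Wt1*, r was 0.42 (permutation p = 0.229, adjusted 0.962). Within wild type it was 0.205 and within null -0.102.

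The partner genes did not pass the test between genotypes either. Of 123 distinct partners with a mean of at least 10, 84 could be tested and 0 had an adjusted p under 0.05 by limma, while 4 had an unadjusted p under 0.05 (4.76%, against 3.6% of all genes). Their median log2 fold change was 0.0033 by limma, beside -0.0046 over all genes. Among those 4 were the zinc exporter gene *Slc30a1*, *Wt1* and the lipoprotein receptor gene *Lrp8*. *Slc30a1* had 279, 275, 276, 304 and 296 in wild-type and 301, 353, 339, 320.0 and 347 in null libraries, with a log2 fold change of 0.21 ± 0.061 (SE) and an adjusted p of 0.998 by limma. Its antisense transcript *1700034H15Rik* had 6.96, 13.6, 12.2, 10.3 and 13.4 in wild-type and 9.90, 13.1, 14.1, 7.52 and 13.1 in null libraries, with a log2 fold change of 0.03 ± 0.28 (SE). Among the members on chromosome 1, the one nearest to *Nos1ap*, named after its values were seen, was *3110045C21Rik* at *Ddr2* (chr1:169969409-169972396, 330272 bp away), with 24.4, 22.3, 17.3, 15.5 and 24.8 in wild-type and 22.5, 20.1, 26.2, 17.2 and 25.05 in null libraries and a log2 fold change of 0.095 ± 0.20 (SE).

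Genes of the RNA exosome and of RNA decay, which degrade many antisense transcripts, were examined as a group. Of 32 symbols in the list, 30 were found, 24 had derived counts and 0 had an adjusted or an unadjusted p under 0.05 by limma. Their log2 fold changes ranged from -0.12 to 0.10, with a median of 0.0017. The catalytic subunit genes had group means of 488 and 512 (*Dis3*) and of 1009 and 1022 (*Exosc10*) in wild type and null. The exosome-associated helicase gene *Skiv2l2* had 872 and 908, and the nonsense-mediated decay helicase gene *Upf1* had 1659 and 1688. The ranges of the genotypes overlapped for all 24 genes with derived counts.

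Relative to its mean, *Il1bos* had a wide spread within a genotype. It had 13.9, 1.94, 13.2, 21.7 and 3.10 in wild-type and 3.60, 63.3, 6.05, 12.9 and 28.3 in null libraries. Null library 2 was the highest and wild-type library 2 the lowest, and the group means were 10.8 ± 8.24 (SD, n = 5) in wild type and 22.8 ± 24.6 (SD, n = 5) in null hearts. The erythroid marker with derived counts was also highest in null library 2, at 256, against 39.3 to 222 elsewhere, and its part in the *Il1bos* value was not tested. The 4 myeloid markers summed to 483 there and to between 379 and 493 in the other libraries. At the median, the variance beyond counting noise, relative to the squared mean, was 0.003 for members, 0.0047 for long intergenic RNAs and 0.0023 for all genes tested.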

How the data were processed

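PolyA RNA of male embryonic hearts, 5 per genotype, was analysed, grouped by the genotype in the sample labels. The authors checked reads with FastQC 0.11.5, trimmed them with Trimmomatic 0.36, aligned them with STAR within RSEM 1.2.31 to GRCm38 and GENCODE release M10 using the strand, and normalized gene counts with DESeq 1.24.0, after dropping genes whose counts summed to 1 or less. The deposited signal columns are means of normalized counts, taken by the authors over all libraries and over each genotype. The table also holds the authors' fold changes and p-values, which were not used here.

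Size factors and whole counts of each library were derived from the digits of the group means, for means under 1000. A set of counts was taken where it was the only one possible, or where it lay nearest to equal expression and no more than 0.01 rival sets were expected at that distance. The search was tested on simulated data. It can leave out genes that differ widely between libraries. It recovered 20349 of 20551 wild-type and 20367 of 20535 null means. No source says that libraries came from separate litters, and p-values measure the spread between these libraries.

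Genes of every type that averaged at least 10 and had derived counts were tested with limma 3.58.1 (R 4.3.3, trended and robust) on log2 values after a pseudocount of 1 was added to the normalized count, with Benjamini-Hochberg adjustment over all of them, and called at an adjusted p under 0.05. The script was tested on simulated data. This replaces a count model, since only means were deposited. Fold changes on this scale understate the change of low genes. Pairs were correlated with 100000 permutations. Positions and partners came from GENCODE release M21 (GRCm38), and sequences from RefSeq. Named are the 10 members each of highest mean, smallest p and highest ratio to the partner, those at developmental regulators, the 5 largest correlations and those at the threshold. Others are marked, and some items that the rule selects are not reported here. Alternatives changed the pseudocount, filter, weights, scaling, thresholds and libraries. The members and lists were chosen with earlier results of these data known.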

Additional observations from a re-analysis of the deposited data

Results flagged for a closer look

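*Gm26982*, at *Ghrl*, had 17.5 normalized counts in wild-type library 4, against 26.1 to 27.8 in the other wild-type libraries. The gap to the next library exceeded 0.71 of the range of the 5 values, the 95% limit of Dixon's test. This was 1 of 78 groups of 5 libraries examined over 39 named transcripts, and chance flags about 1 in 20 groups.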

How the results depend on the processing

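The count of 0 antisense transcripts past the test held with a pseudocount of 0.5, a mean of at least 2, no filter, voom weights, rescaled libraries, the thresholds of 0.01 and an absolute log2 fold change over 1, and without each library in turn. The same 0 was found for partners and for RNA decay genes with a pseudocount of 0.5 and without each library. Transcripts whose genotypes did not overlap numbered from 0 to 3 without single libraries (against 1.26% to 2.35% of all genes), at most *Gm10602*, *Gm12758* and *Gm15417* without null library 3. Without wild-type library 3 it was 1, *Mypopos*. The median log2 fold change was -0.000734, -0.000767 and 0.00103 for antisense rows with means of at least 2, 20 and 50, and between -0.00128 (without null library 5) and 0.045 (without wild-type library 2) with a library left out, so that its sign was not stable. No pair correlation passed with genotype means subtracted or without any single library. Of 585 refitted log2 fold changes of 39 named transcripts, 568 kept their direction and 585 their side of the threshold. No paired analysis was possible because the deposited group means carry no replicate numbers. Low counts limited the precision, with a median standard error of 0.20 (log2) per transcript, and the derived counts cover means under 1000.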
